A study of Oryctolagus cuniculus with 15 samples.

Results

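The insulin-like growth factor (IGF) axis genes described here are the growth factor IGF1, the receptors IGF1R and IGF2R, and the IGF-binding proteins IGFBP2 to IGFBP7. They were chosen as a family, by gene symbol, with earlier results of these data known. Of the 9 genes listed, 8 have a row in a table of 23428 genes, and IGFBP3 was not analysed here. The libraries are bulk RNA-seq of first-passage primary keratocytes, the cells of the corneal stroma, from New Zealand white rabbits. All cells were cultured for 6 days in defined serum-free medium that was swapped on days 2 and 5. The substrates were a collagen-coated dish (2DC), the surface of a fibrillar collagen matrix (2DF) or the inside of such a matrix, at 100000 cells per matrix (3DF) or 50000 (3DF_50). Before lysis, 2DC, 2DF, 3DF and 3DF_50 were incubated with a digestion medium that holds collagenase and hyaluronidase, and a further coated-dish condition (2DC_L) was lysed directly. Each of the 5 conditions has 3 libraries, each pooled from several dishes or matrices of a separate experiment, so the errors below are between experiments. The RNA is that of all cells in the pool, and fewer cells of a type cannot be told apart from less RNA per cell.

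IGF1 is a secreted hormone and local growth factor that signals through IGF1R, a receptor tyrosine kinase, toward growth, survival and matrix synthesis. IGF2R, also known as the cation-independent mannose-phosphate receptor, takes up IGF2 for degradation and sorts lysosomal enzymes. The binding proteins hold IGFs outside the cell, where they can block, store or deliver the ligand. Proteases of the pappalysin and ADAM families cut some of them and so free the ligand, and stanniocalcins inhibit the pappalysins. In the cornea, IGF1 is known as a growth factor for keratocytes.

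Levels are the authors' FPKM (read counts scaled by gene length and library size), so they can be set against each other between genes. Fold changes are log2 values from counts, tested with the quasi-likelihood F test of edgeR. A gene was called when its Benjamini–Hochberg adjusted p over all genes tested was at most 0.05 and its |log2 fold change| was at least 1. Where counts of unadjusted p values under 0.05 are given, the share over all genes was not measured, so they have no background. Between 14626982 and 31804255 reads were counted per library. Every IGF axis gene had more than 3 counts in every library, with the fewest, 23, for IGF1 in a 2DF library. Library names start with a prefix that some libraries of different conditions share, and its meaning is not stated.

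In the oryCun2 rabbit genome, IGF1 lies on chromosome 4 at 81673597 to 81750387 on the minus strand, and IGFBP6 on the same chromosome at 36972294 to 36975949 on the plus strand. IGF1R lies on the unplaced sequence Un0055 at 1410902 to 1667822, and IGF2R on chromosome 12 at 149773362 to 149862350, both on the plus strand. IGFBP2 and IGFBP5 are neighbours on chromosome 7. IGFBP2 runs from 158055670 to 158081810 on the plus strand, and IGFBP5 from 158089205 to 158109942 on the minus strand, with 7395 bases between their ends. IGFBP4 occupies 41584616 to 41595080 on chromosome 19 and IGFBP7 occupies 91986677 to 91995076 on chromosome 15, both on the plus strand. The counts cover the exons of whole gene models, from 589 exon bases for IGFBP7 to 12094 for IGF1R. IGFBP4 overlaps LOC103351558 on the opposite strand by 1859 bases. That gene had 13 to 75 counts per library, against 3831 to 15222 for IGFBP4, and the effect of the overlap on the IGFBP4 counts was not measured. IGFBP7 overlaps POLR2B on the opposite strand by 75 bases. POLR2B had 1885 to 3287 counts against 115 to 357 for IGFBP7, and whether strand was used in counting is not stated. How many of the IGFBP7 counts come from the overlap was not measured.

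Among the 8 genes, the binding proteins IGFBP2, IGFBP4 and IGFBP6 had the highest levels. IGFBP2 had a mean over all libraries above that of 99.9% of the genes in the table, IGFBP4 above 99.1% and IGFBP6 above 98.4%, while IGF1 stood above only 54.8%. IGF1 mRNA fell on or in fibrillar collagen relative to the coated dish, with its lowest mean in 2DF. IGFBP5 fell in 3D relative to either 2D surface, IGFBP6 fell in 2DF relative to the coated dish, and IGFBP4 rose in 3DF relative to 2DF. Without 1 library, the IGFBP6 call in 2DF vs. 2DC held in 3 of 6 fits and the IGFBP4 call in 2 of 6. With the library name prefix as a block, no call in 2DF vs. 2DC or 3DF vs. 2DF held. In an F test over all 5 conditions, 7 of the 8 genes passed at an adjusted p of at most 0.05, against 41.8% of the 14036 genes tested. The exception was IGFBP7 (adjusted p = 0.113), which passed without 2DF replicate 1 (0.0333).

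**Figure D1:**
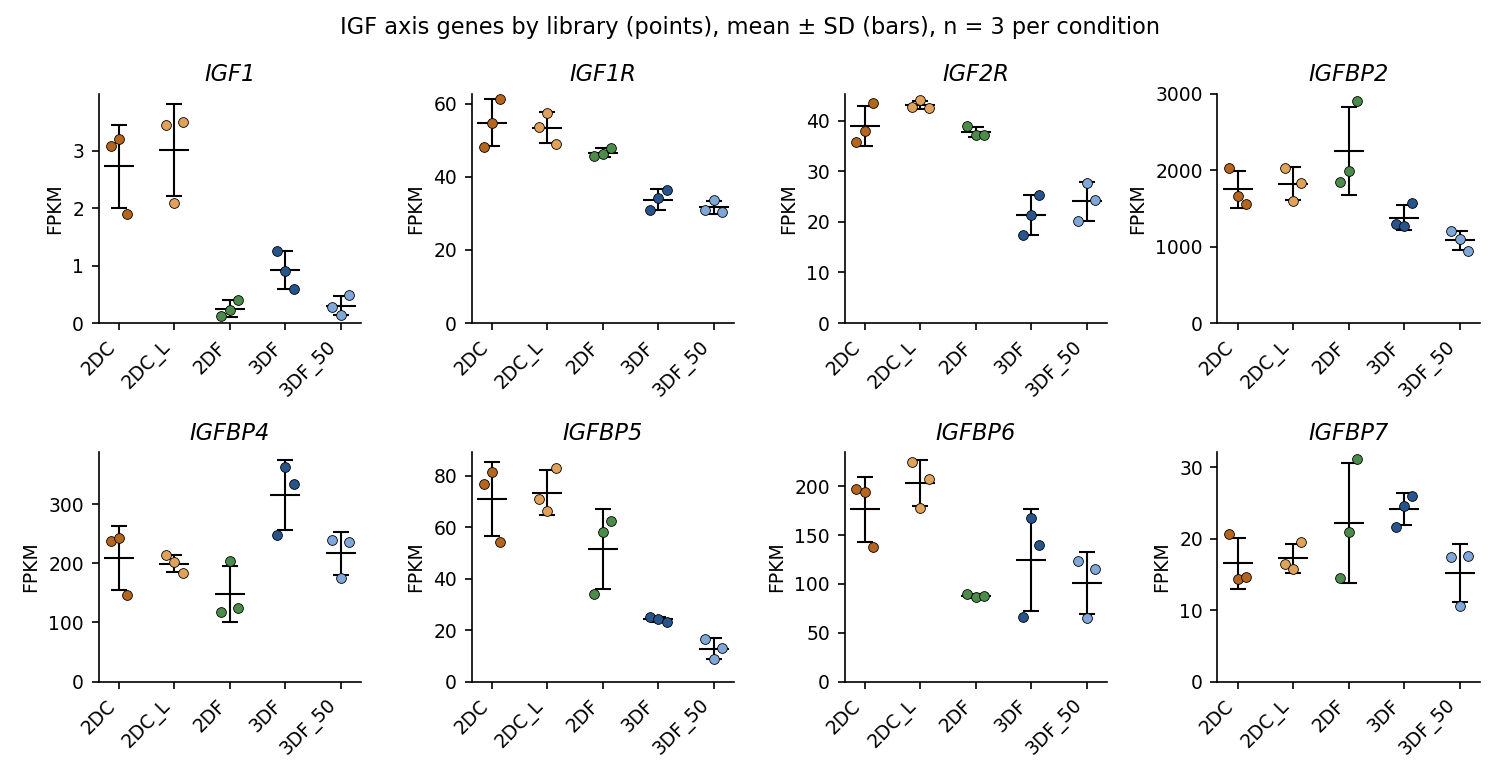
FPKM of each IGF axis gene (y axes, linear and starting at 0, a scale of its own for each gene) in the libraries of each condition (x axes). Points are libraries and bars are mean ± SD (n = 3). IGF1 and IGFBP5 are highest in the coated-dish conditions 2DC and 2DC_L, with IGF1 lowest in 2DF (mean 0.249 FPKM) and IGFBP5 lowest in 3DF_50 (mean 12.7 FPKM), and IGFBP4 is highest in 3DF (mean 315 FPKM).

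IGF1, a ligand of IGF1R, was the least abundant of the 8 IGF axis genes analysed. In 2DC its level was 3.08, 3.20 and 1.89 FPKM in replicates 1 to 3. In 3DF it was 1.25, 0.912 and 0.592 FPKM. The 3DF libraries all lay below the lowest 2DC library. In 2DF the level was 0.115, 0.224 and 0.409 FPKM, and in 3DF_50 it was 0.284, 0.142 and 0.487 FPKM. These values lay below every 3DF library and overlapped each other. Directly lysed 2DC_L libraries held 3.45, 2.09 and 3.49 FPKM, which overlapped 2DC, with replicates 1 and 3 above every 2DC library.

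IGF1 fell by 1.57 on the log2 scale in 3DF vs. 2DC (SE 0.29, edgeR adjusted p = 0.00854), from 2.72 ± 0.724 to 0.920 ± 0.332 FPKM (SD, n = 3). It was 1 of 2 IGF axis genes called, both lower, where 7.56% of the 13493 genes tested were called and 4.32% were called lower. In 2DF vs. 2DC it fell by 3.44 (SE 0.37, adjusted p = 0.00076), a 10.9-fold lower level, and again 2 of 8 were called, both lower, where 4.96% of genes were called and 2.93% were called lower. Set against 2DF, IGF1 in 3DF rose by 1.89 (SE 0.42, adjusted p = 0.0246). It was 1 of 3 IGF axis genes called in 3DF vs. 2DF, where 3.78% of genes were called. That last call was lost without 2DF replicate 1 (1.55, adjusted p = 0.0808), without 2DF replicate 2 (1.82, 0.108) or without 3DF replicate 1 (1.60, 0.0583). With limma on log2(FPKM + 1) the 3DF vs. 2DC difference was -0.95, under the limit on the fold change.

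At the lower cell density in 3D, IGF1 was lower still, without passing the test. It was higher by 1.57 in 3DF vs. 3DF_50 (SE 0.41, adjusted p = 0.102) with no overlap between the libraries. FPKM ranges did not overlap for 29.4% of genes in this comparison, and 0.452% of genes were called. DESeq2 called this difference (1.57, adjusted p = 0.00308). In 3DF_50 vs. 2DC it fell by 3.15 (SE 0.36, adjusted p = 0.000232), where 11.6% of genes were called. In 3DF_50 vs. 2DF the difference was 0.31 (adjusted p = 0.75). The order of means was thus 2DC_L, 2DC, 3DF, 3DF_50 and 2DF, and among neighbours in it only 2DC and 3DF differed by the test.

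IGF1R, the signalling receptor, was abundant and had no called pair. By DESeq2 0 pairs were called too, while 6 of 10 had an unadjusted p under 0.05 by edgeR. Its level was 48.3, 54.9 and 61.2 FPKM in 2DC, 45.8, 46.3 and 47.9 FPKM in 2DF, and 30.9, 34.2 and 36.4 FPKM in 3DF. The 3 ranges did not overlap, though 2DF reached 47.9 FPKM against 48.3 in 2DC. FPKM ranges did not overlap for 37.8% of genes in 3DF vs. 2DC and for 29.3% in 3DF vs. 2DF. That share for 2DF vs. 2DC is not given here. In 3DF_50 the level of IGF1R was 31.0, 33.6 and 30.4 FPKM, within the range of 3DF apart from replicate 3 of 3DF_50. The largest log2 fold changes stayed under the limit. In 3DF vs. 2DC it was -0.71 (SE 0.14, adjusted p = 0.01), so the gene passed the adjusted p, as 15.4% of genes did, but not the limit. In 3DF_50 vs. 2DC it was -0.79 (adjusted p = 0.000586), and in 3DF vs. 2DF it was -0.46 (adjusted p = 0.0721). In 2DF, where IGF1 was 10.9-fold lower than in 2DC, IGF1R was 1.17-fold lower (adjusted p = 0.194).

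IGF2R followed the step from 2D to 3D. The level in 2DC was 35.8, 37.9 and 43.4 FPKM, and that in 2DF was 39.0, 37.1 and 37.2 FPKM. In 3DF it was 17.5, 21.4 and 25.4 FPKM, and in 3DF_50 it was 20.2, 27.8 and 24.4 FPKM. All 6 libraries from 3D culture were below all 9 libraries from 2D culture. FPKM ranges did not overlap for 37.8% of genes in 3DF vs. 2DC and for 29.3% in 3DF vs. 2DF. In 3DF vs. 2DC the log2 fold change was -0.88 (SE 0.16, adjusted p = 0.00814), and without 3DF replicate 3 it was -1.02 and the gene was called. It was -0.82 in 3DF vs. 2DF (adjusted p = 0.0123) and -0.04 in 2DF vs. 2DC (adjusted p = 0.81). Relative to the directly lysed dish, IGF2R fell in 3DF by 1.01 (SE 0.15, adjusted p = 0.00141), where 10.2% of genes were called. That call was lost by the limit on the fold change without 2DC_L replicate 2 (-0.99) or without 3DF replicate 1 (-0.88).

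**Figure D2:**
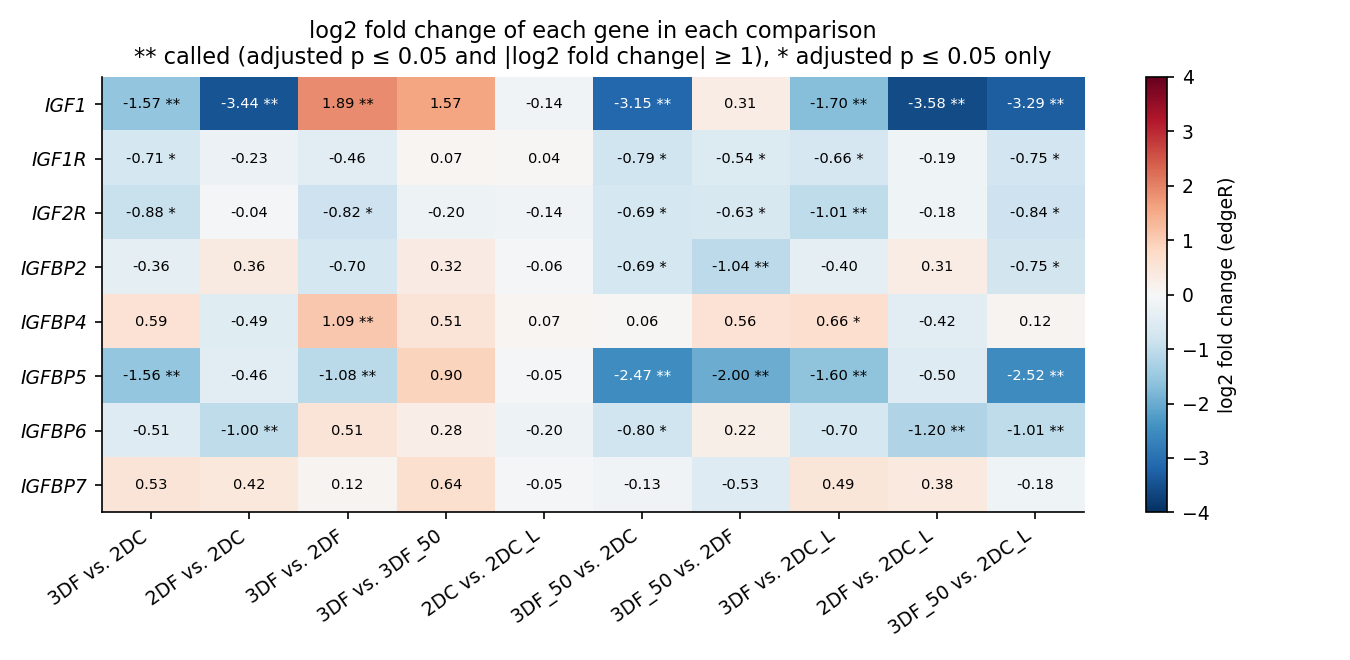
Log2 fold change (colour and printed value, edgeR) of each IGF axis gene (rows) in each of the 10 pairs of conditions (columns, first condition over second). The row of IGF1 has 7 called pairs and that of IGFBP5 has 6, IGF1R passes the adjusted p in 5 pairs with none called, and the column for 2DC vs. 2DC_L has none.

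IGFBP2, which binds both IGFs and can also bind integrins, had the highest level of the 8 IGF axis genes in every library. Its level was 2027, 1665 and 1563 FPKM in 2DC and 1847, 1989 and 2906 FPKM in 2DF. In 3DF it was 1296, 1267 and 1566 FPKM, and in 3DF_50 it was 1201, 1098 and 948 FPKM. The mean was highest in 2DF and lowest in 3DF_50. Replicate 3 of 2DF was far above the other 2DF libraries, which lay within the range of 2DC. IGFBP2 fell by 1.04 in 3DF_50 vs. 2DF (SE 0.19, adjusted p = 0.00369), where 4.45% of genes were called. Without 2DF replicate 3 this was -0.82, and without 3DF_50 replicate 3 it was -0.95, both under the limit on the fold change. No other pair was called. In 3DF vs. 2DC the log2 fold change was -0.36 (adjusted p = 0.168), and in 3DF vs. 2DF it was -0.70 (adjusted p = 0.0803).

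IGFBP4, generally described as an inhibitor of IGF action, had its highest level in 3DF. Its level there was 248, 363 and 335 FPKM, against 118, 203 and 125 FPKM in 2DF. It rose by 1.09 in 3DF vs. 2DF (SE 0.23, adjusted p = 0.0213). This call rested on several libraries. It was lost without 2DF replicate 1 (0.94, adjusted p = 0.106), without 2DF replicate 3 (0.98, 0.0867), without 3DF replicate 2 (0.96, 0.0449) or without 3DF replicate 3 (1.04, 0.0543). In 2DC the level was 238, 243 and 146 FPKM, just below 3DF with no overlap, and the log2 fold change of 0.59 in 3DF vs. 2DC did not pass (adjusted p = 0.121). In 3DF_50 the level was 240, 176 and 236 FPKM, which overlapped 2DC. IGFBP4 and IGFBP7 were the binding proteins with their highest mean in 3DF.

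IGFBP5, a binding protein that attaches to extracellular matrix, showed the largest fall in 3D among the binding proteins. Its level was 76.7, 81.5 and 54.4 FPKM in 2DC and 70.9, 66.3 and 83.1 FPKM in 2DC_L. In 2DF it was 33.8, 58.2 and 62.4 FPKM, overlapping 2DC. In 3DF it was 25.1, 24.4 and 23.2 FPKM, and in 3DF_50 it was 16.6, 8.60 and 13.1 FPKM. The 3DF libraries lay close together and below all 2D libraries, and all 3DF_50 libraries were below all 3DF libraries.

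IGFBP5 fell by 1.56 in 3DF vs. 2DC (SE 0.16, adjusted p = 0.000617), from 70.9 ± 14.5 to 24.2 ± 0.975 FPKM (SD, n = 3). It fell by 1.08 in 3DF vs. 2DF (SE 0.21, adjusted p = 0.0145). Without 2DF replicate 2 (-0.98, adjusted p = 0.0659) or 2DF replicate 3 (-0.92, 0.0582) the latter call was lost. With all 6 libraries of 3DF vs. 2DC, and without any 1 of them, the gene was called. It fell further at the lower density, by 2.47 in 3DF_50 vs. 2DC (SE 0.24, adjusted p = 9.3e-05) and by 2.00 in 3DF_50 vs. 2DF (SE 0.25, adjusted p = 0.000491). Its log2 fold change was -0.46 between 2DF and 2DC (adjusted p = 0.217) and 0.90 in 3DF vs. 3DF_50 (adjusted p = 0.0827). In the order of means, 2DC_L, 2DC, 2DF, 3DF and 3DF_50, the only neighbours that differed by the test were 2DF and 3DF.

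IGFBP6, which prefers IGF2 over IGF1, was lowest in 2DF. Its level was 198, 194 and 138 FPKM in 2DC and 89.6, 86.1 and 87.6 FPKM in 2DF. In 3DF the level spread from 66.4 FPKM in replicate 1 to 167 and 140 FPKM in replicates 2 and 3, and in 3DF_50 it was 123, 64.9 and 115 FPKM. The 2DF libraries lay together, while those from 3D culture spread over both the 2DF and 2DC levels. IGFBP6 fell by 1.00 in 2DF vs. 2DC (SE 0.14, adjusted p = 0.00218), just past the limit on the fold change. It was no longer past that limit without 2DC replicate 1 (-0.91), without 2DC replicate 2 (-0.93) or without 2DF replicate 2 (-0.99), all with an adjusted p of at most 0.0149. Against the directly lysed dish it fell by 1.20 in 2DF (SE 0.10, adjusted p = 5e-05), where 7.39% of genes were called, and this held without any 1 library. It fell by 1.01 in 3DF_50 vs. 2DC_L (adjusted p = 0.00322), where 13.5% of genes were called. Without 2DC_L replicate 1 (-0.93), 2DC_L replicate 3 (-0.99) or 3DF_50 replicate 2 (-0.77) that fold change was under the limit. In 3DF vs. 2DC the log2 fold change was -0.51 (adjusted p = 0.316), with overlapping libraries.

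IGFBP7, a related secreted protein that binds IGFs weakly, was called in none of the 10 pairs by edgeR or DESeq2, with an unadjusted edgeR p under 0.05 in 3. Its level was 20.6, 14.4 and 14.6 FPKM in 2DC, 14.5, 21.0 and 31.1 FPKM in 2DF, 21.7, 24.6 and 26.1 FPKM in 3DF and 17.4, 10.5 and 17.6 FPKM in 3DF_50. The 3DF libraries were all above the 2DC and 3DF_50 libraries. The log2 fold change was 0.53 in 3DF vs. 2DC (adjusted p = 0.0887) and 0.64 in 3DF vs. 3DF_50 (adjusted p = 0.159). As with IGFBP2, 2DF replicate 3 held the highest value of its condition.

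**Figure D3:**
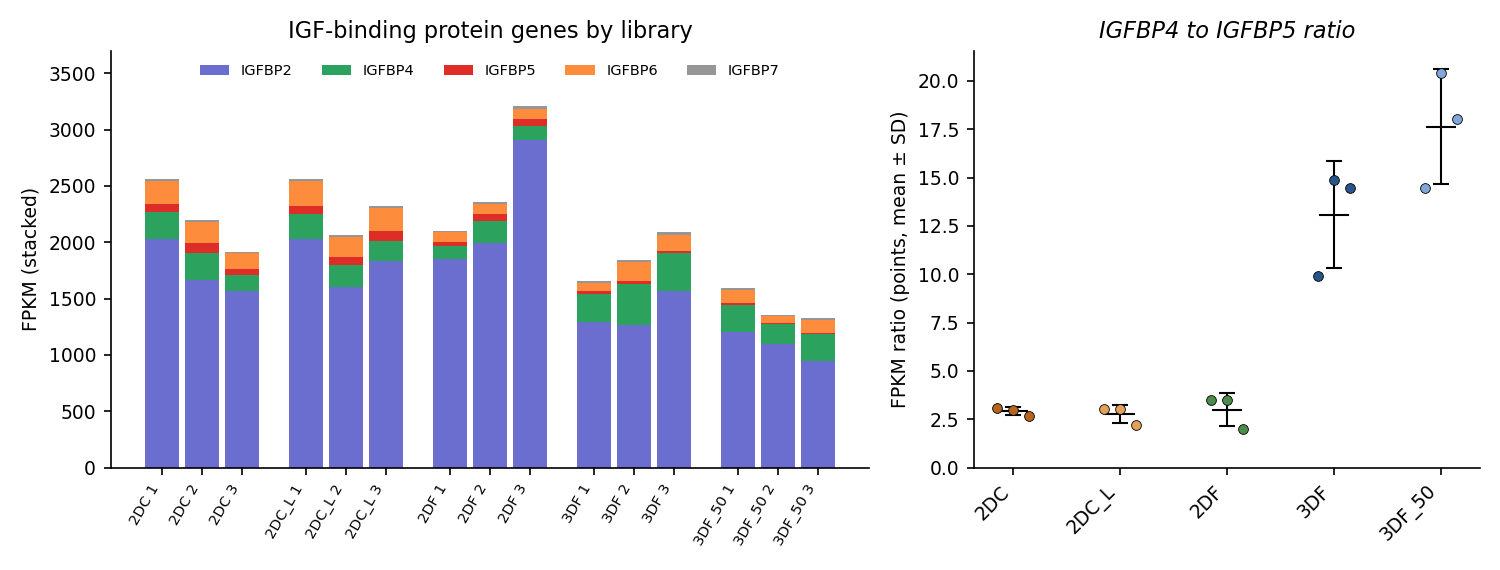
Left, FPKM of the 5 IGF-binding protein genes stacked for each library. Right, the ratio of IGFBP4 to IGFBP5 FPKM for each library (points) with mean ± SD (bars, n = 3) by condition. IGFBP2 makes up 68.6% to 90.5% of every stack, and the ratio is at most 3.50 in the 2D libraries and at least 9.91 in the 3D libraries.

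Summed over the 5 binding proteins, 2DC held 2225 ± 323 FPKM, 2DF held 2558 ± 581, 3DF held 1865 ± 217 and 3DF_50 held 1428 ± 148 (SD, n = 3). IGFBP2 made up 68.6% to 90.5% of this sum in every library. IGFBP4 made up 16.9% ± 2.44 of it in 3DF, against 9.33% ± 1.71 for 2DC and 6.04% ± 2.39 for 2DF, and IGFBP5 made up 1.31% ± 0.203 in 3DF, against 3.18% ± 0.465 for 2DC and 2.01% ± 0.433 for 2DF. The ratio of IGFBP4 to IGFBP5 was 3.10, 2.98 and 2.69 in the 2DC libraries and 3.49, 3.50 and 2.01 in the 2DF libraries. It was 9.91, 14.9 and 14.5 in 3DF, and 14.5, 20.4 and 18.1 in 3DF_50. This ratio was chosen after its values were seen and was not tested.

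For the digestion step, 2DC vs. 2DC_L, none of the 8 genes was called by edgeR or by DESeq2, and none had an unadjusted p under 0.05. In this comparison 0.265% of the 13608 genes tested were called. The log2 fold changes of the IGF axis genes ran from -0.20 for IGFBP6 to 0.07 for IGFBP4, with SEs from 0.09 to 0.24 and adjusted p values from 0.916 to 0.988. All 8 genes had overlapping libraries, and FPKM ranges did not overlap for 12.8% of all genes. For cell density, 3DF vs. 3DF_50, none of the 8 was called by edgeR, although 4 had an unadjusted p under 0.05, and DESeq2 called 1, IGF1. The median log2 fold change of the 8 genes was 0.42, against 0.01 over all genes tested. Its largest values were 1.57 for IGF1 and 0.90 for IGFBP5, followed by 0.64 for IGFBP7.

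Counted over the 10 pairs, which share libraries and are not independent, IGF1 was called in 7, IGFBP5 in 6 and IGFBP6 in 3. IGFBP2, IGFBP4 and IGF2R were called in 1 pair each. The median log2 fold change of the 8 genes was -0.61 in 3DF vs. 2DC, -0.34 in 2DF vs. 2DC and -0.17 in 3DF vs. 2DF, beside 0.01, 0.00 and 0.01 over all genes tested.

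**Figure D4:**
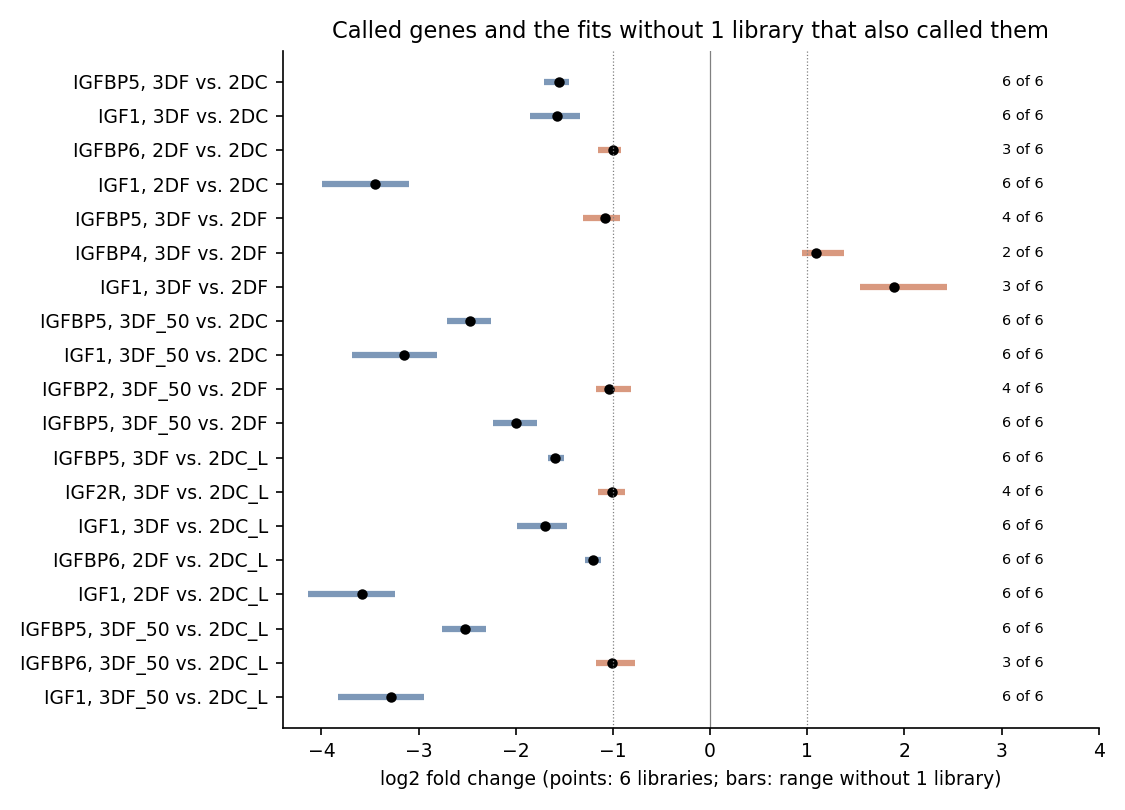
Each called gene and pair of conditions (rows) with its log2 fold change on the x axis from all 6 libraries (black points) and the range over the 6 fits that leave out 1 library (bars). The count at the right is how many of those fits also called it, with bars in blue where all 6 did and in orange where fewer did, and dotted lines mark the limit of 1. IGF1 and IGFBP5 against 2DC or 2DC_L are called in 6 of 6 fits, while IGFBP4 in 3DF vs. 2DF is called in 2.

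Some libraries of different conditions share the prefix of their names. Within 3 such prefixes a 3D library can be set beside a coated-dish library, in 5 pairs in all. IGF1 was lower in the 3D library in 5 of 5 pairs, with log2 FPKM ratios from -3.50 to -0.59. The same count was found for IGFBP5 (-2.67 to -1.12), IGF2R (-1.31 to -0.80), IGF1R, IGFBP2 and IGFBP6. IGFBP4 (-0.018 to 0.98) and IGFBP7 (-0.15 to 0.57) were lower in 1 of 5. Some of these pairs share a library, so they are not independent. The share of all genes lower in 5 of 5 pairs was not measured, so these counts have no background. With the prefix as a block and all 5 conditions in the fit, IGFBP5 in 3DF vs. 2DC had a log2 fold change of -1.39 (adjusted p = 0.00222), IGF1 of -1.30 (0.0377) and IGF2R of -1.11 (0.00183), and all 3 were called. The 2DF condition shares a prefix with only 1 other library, of 3DF_50, and no call in 2DF vs. 2DC, 3DF vs. 2DF or 2DF vs. 2DC_L held in that fit, while IGFBP5 was still called in 3DF_50 vs. 2DF. The adjusted p was 0.256 for IGF1 (-3.12) and 0.809 for IGFBP6 (-0.36) in 2DF vs. 2DC. For the 3DF vs. 2DF calls the block left fold changes of similar size, 1.82 for IGF1 (adjusted p = 0.602), 1.23 for IGFBP4 (0.145) and -1.06 for IGFBP5 (0.413).

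Other measures moved with the conditions too. Keratocyte markers, 6 of the 8 listed in the table (such as the proteoglycans lumican and decorin), summed to 18394 to 31642 FPKM over all libraries. The sum was not split by gene, so it does not by itself establish the cell type. Corneal epithelial markers, 7 of 8 in the table, summed to 0.0699 to 0.957 FPKM in 2DC, with KRT12 at 0, and to 7.65 to 13.1 FPKM in 3DF. In 2DF they summed to 0.731 to 5.81 FPKM and in 3DF_50 to 0.0606 to 6.23 FPKM. Proliferation genes, 6 of 6 in the table, summed to 5.69 to 40.0 FPKM in 2DC and to at most 4.72 FPKM in the conditions with fibrillar collagen. Vascular endothelial markers, 5 of 5 in the table, summed to 32.9 to 62.5 FPKM in 2DC and 117 to 119 FPKM in 3DF. In 2DF they summed to 51.2 to 67.8 FPKM and in 3DF_50 to 49.9 to 75.5 FPKM. Only 3 of the 5 had more than 3 counts in any 2DC or 2DF library, and PECAM1 was at 0 in 3DF_50. The paper names CDH5, which is on this list, as high in both fibrillar conditions. The cell source of this sum was not tested. Myofibroblast markers, 3 of 4 in the table, summed to 4.94 to 7.48 FPKM in 2DC and to at most 1.07 FPKM in every 3D library. Over all libraries, leukocyte markers (5 of 6 in the table) summed to 2.21 to 7.99 FPKM and neural crest glia markers (4 of 4) to 1.70 to 3.94 FPKM. Early response genes, 7 of 8 in the table, summed to 67.1 to 76.4 FPKM in 2DC_L, 1470 to 1700 FPKM in 2DC and 2073 to 4942 FPKM in the fibrillar conditions. The part of these in the IGF axis values was not tested.

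The rest of the pathway was read from lists of ligand, carrier and protease genes, receptor-proximal signalling genes, growth hormone receptor genes and targets of the FOXO factors, which IGF signalling restrains. Of 12 ligand, carrier and protease genes, 10 were in the table and 6 or 7 were tested in each comparison. IGF2 was not analysed here, and IGFBP1 had 0 counts in all libraries, which allows up to 3 counts in each. The list had 3 genes called in 3DF vs. 2DC, all lower (PAPPA2, STC2 and ADAM12), 1 lower in 2DF vs. 2DC (STC2), 1 lower in 3DF vs. 2DF (PAPPA2) and 2 higher in 3DF vs. 3DF_50 (STC2 and ADAM12). Over all genes, 7.56%, 4.96%, 3.78% and 0.452% were called in these comparisons. For 3DF vs. 2DC its members tested had a median log2 fold change of -0.17, beside 0.01 over all genes.

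PAPPA2, a pappalysin that cuts IGFBP5 and IGFBP3, had a level of 32.5, 40.1 and 30.1 FPKM in 2DC and 23.8, 19.7 and 42.0 FPKM in 2DF. In 3DF the level was 5.80, 8.32 and 4.96 FPKM, and in 3DF_50 it was 3.66, 3.50 and 3.81 FPKM. All libraries from 3D culture were below all from 2D culture, as for its substrate IGFBP5. PAPPA2 fell by 2.44 in 3DF vs. 2DC (SE 0.21, adjusted p = 0.000297) and fell by 2.16 in 3DF vs. 2DF (SE 0.29, adjusted p = 0.0024), and both calls held without any 1 library. In 2DF vs. 2DC it was not called.

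STC2, a stanniocalcin that inhibits pappalysins, had a level of 29.2, 17.8 and 14.5 FPKM in 2DC, 3.84, 7.20 and 2.83 FPKM in 2DF, 6.10, 6.28 and 5.53 FPKM in 3DF and 2.92, 1.62 and 2.89 FPKM in 3DF_50. Every library on or in fibrillar collagen was below every 2DC library, as for IGF1. STC2 fell by 1.79 in 3DF vs. 2DC (SE 0.24, adjusted p = 0.00209) and fell by 2.15 in 2DF vs. 2DC (SE 0.35, adjusted p = 0.00494). It was higher by 1.24 in 3DF vs. 3DF_50 (adjusted p = 0.0445), a call that held in 1 of the 6 fits without 1 library, that without 3DF replicate 1. The adjusted p rose to 0.0629 without 3DF replicate 2, 0.0716 without 3DF replicate 3, 0.125 without 3DF_50 replicate 1, 0.15 without 3DF_50 replicate 2 and 0.0713 without 3DF_50 replicate 3.

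ADAM12, a protease that cuts IGFBP3 and IGFBP5, had a level of 3.68, 4.33 and 7.49 FPKM in 2DC and 2.21, 1.57 and 1.75 FPKM in 3DF. In 3DF_50 it was 0.676, 0.604 and 0.785 FPKM. The ranges of these 3 conditions did not overlap, while 2DF spread from 2.53 to 10.6 FPKM. Ranges did not overlap for 37.8% of genes in 3DF vs. 2DC and for 29.4% in 3DF vs. 3DF_50. ADAM12 fell by 1.49 in 3DF vs. 2DC (SE 0.27, adjusted p = 0.00789) and was higher by 1.39 in 3DF vs. 3DF_50 (SE 0.20, adjusted p = 0.0318). The latter was lost without 3DF replicate 3 (adjusted p = 0.0625), 3DF_50 replicate 1 (0.116) or 3DF_50 replicate 2 (0.159). PAPPA and HTRA1, proteases of IGFBP4 and IGFBP5 that are outside the naming rule and were picked after their values were seen, were called in none of these 5 comparisons by edgeR or DESeq2, with an unadjusted edgeR p under 0.05 in 2 for PAPPA and 1 for HTRA1. HTRA1 had a mean level of 3141 FPKM, above that of IGFBP2.

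**Figure D5:**
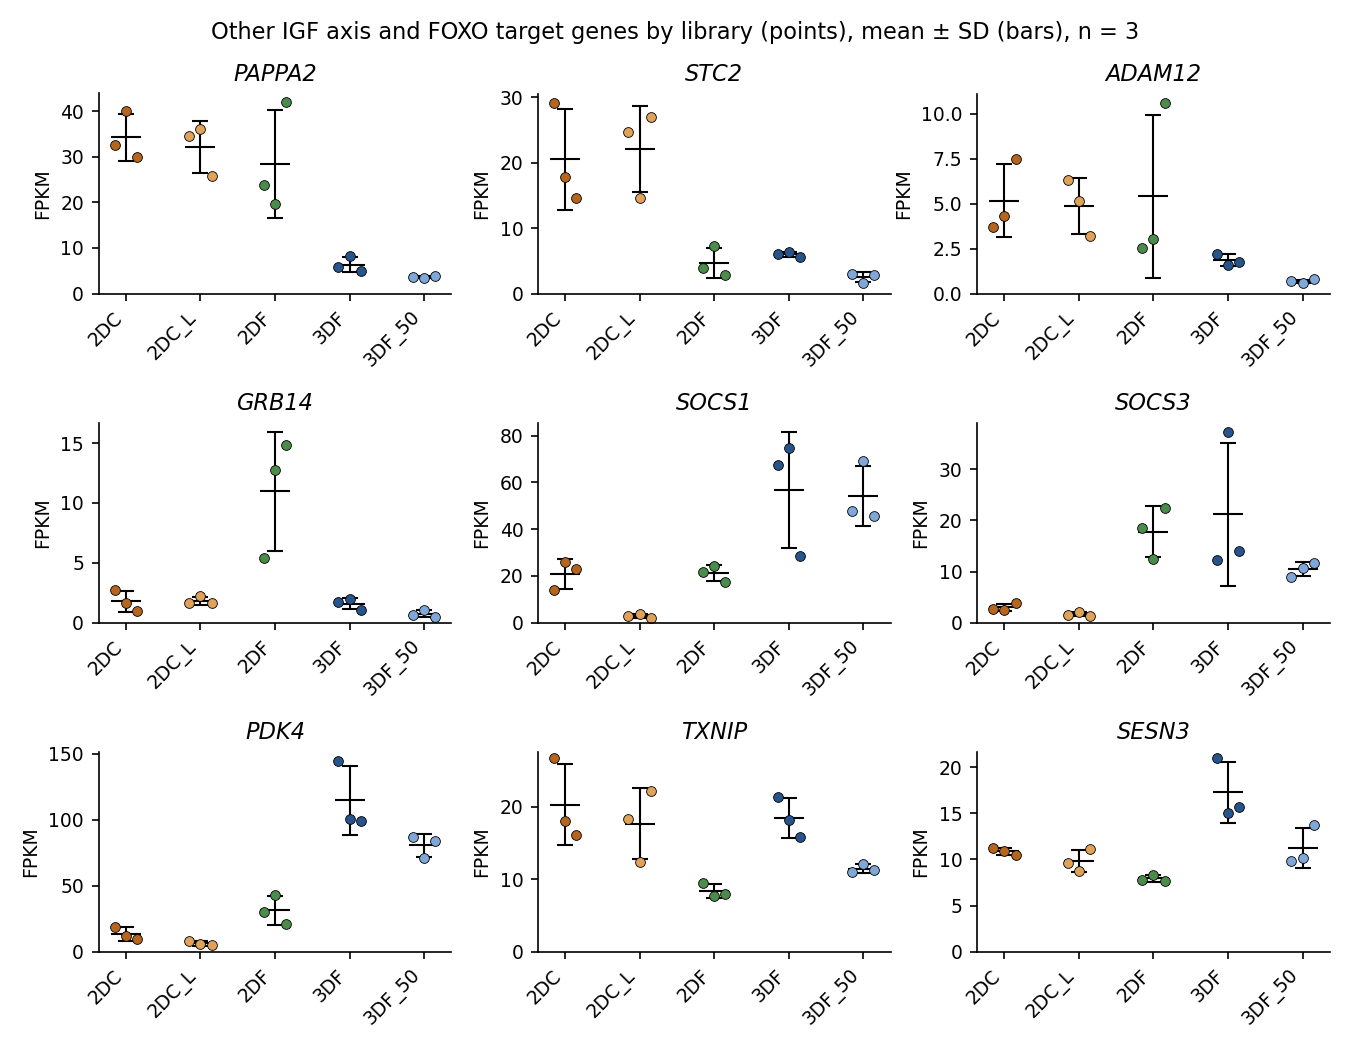
FPKM (y axes, linear and starting at 0, a scale of its own for each gene) of the other IGF axis genes and FOXO targets called in at least 1 of the 5 comparisons described, by condition (x axes). Points are libraries and bars are mean ± SD (n = 3). PAPPA2 is low in both 3D conditions, STC2 is low in all conditions with fibrillar collagen, GRB14 is high in 2DF alone, SOCS1 is lowest in 2DC_L, and PDK4 is highest in 3DF (mean 114 FPKM).

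Of 18 receptor-proximal genes, 17 were in the table and 16 were tested. In 3DF vs. 2DC 2 were called, both higher (SOCS1 and SOCS3), beside 7.56% of all genes, and in 2DF vs. 2DC 2 were called, both higher (GRB14 and SOCS3), beside 4.96%. SOCS1 was called higher and GRB14 lower in 3DF vs. 2DF, beside 3.78%. None was called in 3DF vs. 3DF_50 by edgeR or DESeq2 (6 with an unadjusted edgeR p under 0.05), and SOCS1 was called higher in 2DC vs. 2DC_L. The insulin receptor INSR, the receptor substrates IRS1 and IRS2, the kinase subunits PIK3R1 and PIK3CA, and the kinase AKT2 were called in none of these comparisons.

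GRB14, an adapter that binds and inhibits insulin-family receptors, had a level of 2.71, 1.63 and 0.951 FPKM in 2DC, 5.37, 12.8 and 14.8 FPKM in 2DF and 1.68, 1.96 and 1.06 FPKM in 3DF. The 2DF libraries were above all others, and 2DF was the condition with the lowest mean IGF1. GRB14 rose by 2.62 in 2DF vs. 2DC (SE 0.43, adjusted p = 0.00504) and fell by 2.80 in 3DF vs. 2DF (SE 0.37, adjusted p = 0.00239), and both calls held without any 1 library.

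SOCS3, a feedback inhibitor of cytokine receptors that can also bind insulin receptor substrates, had a level of 2.61, 2.50 and 3.77 FPKM in 2DC and at least 8.98 FPKM in every library with fibrillar collagen. It rose by 2.84 in 3DF vs. 2DC (SE 0.44, adjusted p = 0.00397) and by 2.60 in 2DF vs. 2DC (SE 0.24, adjusted p = 0.000437). For the digestion step, 2DC vs. 2DC_L, SOCS3 was higher by 0.87 and was not called (adjusted p = 0.667). Its level in 2DC_L was 1.42, 2.08 and 1.31 FPKM, below every 2DC library. SOCS1, of the same family, had a level of 13.8, 25.8 and 22.9 FPKM in 2DC, 2.96, 3.76 and 2.02 FPKM in 2DC_L and 67.3, 74.6 and 28.4 FPKM in 3DF. It rose by 1.44 in 3DF vs. 2DC (SE 0.36, adjusted p = 0.03), a call that held only without 3DF replicate 3. The adjusted p was 0.08, 0.0618 and 0.084 without 2DC replicates 1, 2 and 3, 0.0616 without 3DF replicate 1 and 0.077 without 3DF replicate 2. It rose by 1.44 in 3DF vs. 2DF (SE 0.31, adjusted p = 0.0232), a call lost (adjusted p in brackets) without 2DF replicate 1 (0.1), 2 (0.072) or 3 (0.0941) or without 3DF replicate 1 (0.0515). SOCS1 was also higher by 2.80 in 2DC vs. 2DC_L (SE 0.29, adjusted p = 0.00522), and so moved with the digestion step as the early response genes did.

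Of the 4 growth hormone receptor genes, 3 were in the table (GHR, JAK2 and STAT5B) and none was called in any of the 10 pairs by edgeR or DESeq2. Of their 30 tests, from pairs that share libraries, 18 had an unadjusted edgeR p under 0.05. The share of such tests over all genes was not measured. Of 14 FOXO targets, all were in the table and 13 were tested. In 3DF vs. 2DC 1 of 13 was called, higher (PDK4), a share near the 7.56% of all genes. In 2DF vs. 2DC PDK4 was called higher and TXNIP lower, beside 4.96% of all genes. All 3 called in 3DF vs. 2DF were higher (PDK4, TXNIP and SESN3), beside 3.78% of all genes. None was called by edgeR or DESeq2 in 3DF vs. 3DF_50 (8 with an unadjusted edgeR p under 0.05) or in 2DC vs. 2DC_L (2 with such a p). The list had a median log2 fold change of 0.18 in 3DF vs. 2DC, 0.03 in 2DF vs. 2DC and 0.13 in 3DF vs. 2DF.

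PDK4, a kinase that shuts off pyruvate dehydrogenase, had a level of 18.9, 11.4 and 9.26 FPKM in 2DC, 29.8, 42.9 and 20.6 FPKM in 2DF and 145, 100.1 and 98.8 FPKM in 3DF. The ranges of the 3 conditions did not overlap, as for 37.8% of genes in 3DF vs. 2DC and 29.3% in 3DF vs. 2DF. PDK4 rose by 3.10 in 3DF vs. 2DC (SE 0.28, adjusted p = 0.00037) and by 1.88 in 3DF vs. 2DF (SE 0.26, adjusted p = 0.00278). For the digestion step, 2DC vs. 2DC_L, PDK4 was higher by 1.09 and was not called (adjusted p = 0.512). Its level in 2DC_L was 8.02, 5.84 and 4.63 FPKM, below every 2DC library. In 2DF vs. 2DC it rose by 1.24 (SE 0.30, adjusted p = 0.0279), a call lost without 2DC replicate 2 (adjusted p = 0.113), 2DC replicate 3 (0.0591), 2DF replicate 1 (0.0806) or 2DF replicate 2 (0.0917). TXNIP, which binds thioredoxin and limits glucose uptake, had a level of 26.7, 18.1 and 16.1 FPKM in 2DC, 7.67 to 9.49 FPKM in 2DF and 21.4, 18.2 and 15.9 FPKM in 3DF. It fell by 1.27 in 2DF vs. 2DC (SE 0.19, adjusted p = 0.00313) and rose by 1.14 in 3DF vs. 2DF (SE 0.16, adjusted p = 0.00294). SESN3, a sestrin that restrains mTORC signalling, was 7.76, 8.36 and 7.70 FPKM in 2DF and 21.1, 15.1 and 15.7 FPKM in 3DF. It rose by 1.13 in 3DF vs. 2DF (SE 0.15, adjusted p = 0.00255), and by 0.96, under the limit, without 3DF replicate 1.

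For each IGF axis gene called in 3DF vs. 2DC, 2DF vs. 2DC or 3DF vs. 2DF, the genes with the most similar pattern were taken by Pearson correlation of log2(FPKM + 1) over the 15 libraries, among 9688 genes with a symbol and a mean of at least 1 FPKM. The libraries of a condition share its mean and the library size, so these values describe the pattern only. IGF1 was closest to C1RL (r = 0.971), GALNT5 (0.964) and CS (0.964). The mean of GALNT5, an enzyme of O-glycosylation, went from 10.6 FPKM in 2DC to 2.94 in 2DF, 5.80 in 3DF and 2.04 in 3DF_50. With a pseudocount of 0.1, GALNT5 was the only one of these 3 still among the closest 3. IGFBP5 was closest to PDIA3 (0.981), COL5A2 (0.981) and PYCR1 (0.980). The means of PYCR1, an enzyme of proline synthesis, were 38.1 FPKM in 2DC, 17.7 in 2DF, 6.47 in 3DF and 2.69 in 3DF_50. IGFBP6 was closest to NIPAL3 (0.962), SYNGR1 (0.961) and SELM (0.958). IGFBP4 had looser neighbours, GALNT18 (0.907), THSD1 (0.907) and BEND5 (0.905). Among the genes of the axis itself, IGFBP5 had r = 0.871 with IGF1R and r = 0.705 with IGF1, and r = -0.24 with IGFBP4.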

How the data were processed

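For each of 5 culture conditions, 3 bulk RNA-seq libraries were analysed, with conditions and replicate numbers taken from the labels. The authors deposited unnormalized counts (reads per gene, HISAT2 2.0.5 alignment to oryCun2, featureCounts 1.5.0-p3). They also deposited FPKM, which are the counts over gene length and a size factor for the library, at 0.921 to 1.24 of its total count. Here FPKM gave the levels and the counts gave the tests. Totals of 14626982 to 31804255 reads and 3 experiments per condition set the precision.

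Each pair of conditions was fitted alone in edgeR 4.0.16 (R 4.3.3) by a two-sided quasi-likelihood F test after TMM scaling and filterByExpr (minimum count 10). Adjusted p values are Benjamini–Hochberg values over all genes tested, and an SE is |log2 fold change| over the root of F. In simulated 3DF vs. 2DC counts, where 200 of 13493 genes had a log2 fold change of 2, edgeR found 95.5% and made 0 false calls. Recovery at log2 fold changes near the limit of 1, where several of the calls above lie, was not tested. Alternatives used DESeq2 1.42.0, its size factors within edgeR, unscaled library sizes, an absent or stricter filter (mean 1 CPM), a joint fit of the 5 conditions, blocks for replicate number or library prefix, limma 3.58.1 on FPKM with a pseudocount of 1 or 0.1 (genes with mean FPKM of 0.1 or more), adjusted p alone, and fits lacking 1 library. The IGF axis genes, gene lists and naming rule were chosen with earlier results of these data known. The rule named all IGF axis genes, list genes called in any pair among 2DC, 2DF and 3DF, between the cell densities or for the digestion step, and the 3 genes closest in pattern to each IGF axis gene called among 2DC, 2DF and 3DF. Symbols and positions come from the deposited tables. Summaries and figures were made in Python 3.11.15 (numpy 2.4.6, pandas 2.3.3, matplotlib 3.10.9).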

Additional observations from a re-analysis of the deposited data

How the results depend on the processing

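The alternatives gave 640 log2 fold changes of IGF axis genes. They cover the pairs among 2DC, 2DF and 3DF, the cell densities and the digestion step. Of these, 589 kept their direction and side of the threshold, 25 lost the call, 5 gained it and 21 reversed. Most were of genes not called in the main fit, which could not lose a call. IGFBP6 in 2DF vs. 2DC lost its call in 5 of 10 alternatives and in 3 of 6 fits without 1 library. For IGF1 in 3DF vs. 2DF these were 4 of 10 and 3 of 6, and for IGFBP5 in 3DF vs. 2DC 0 of 10 and 0 of 6. No reversal was of a gene in a comparison where it was called. The count of IGF axis genes called in 3DF vs. 2DC went from 2 to 1 with limma on log2(FPKM + 1) and to 4 with no limit on the fold change. In 2DF vs. 2DC it went from 2 to 1 with library size alone and with either limma fit, and to 0 with the library prefix as a block. In 3DF vs. 2DF it went from 3 to 0 with the prefix block. In 3DF vs. 3DF_50 it went from 0 to 1 with DESeq2, with no filter and with all 5 conditions. In 3DF_50 vs. 2DF it went from 2 to 1 with library size alone or the prefix block. In 2DF vs. 2DC_L it went from 2 to 0 with the prefix block. With no limit on the fold change it was 6 in 3DF_50 vs. 2DC, 4 in 3DF_50 vs. 2DF, 5 in 3DF vs. 2DC_L and 6 in 3DF_50 vs. 2DC_L. The prefix block leaves 2DF few libraries to compare with, and the other causes were not tested. Without 1 library the counts ran from 1 to 2 in 2DF vs. 2DC, from 1 to 2 in 3DF vs. 2DF and from 1 to 2 in 3DF_50 vs. 2DF.

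Replicate numbers were not taken as pairs in the main fits. In no comparison did same-numbered libraries deviate together with every correlation above 0.1, a rule that cannot exclude pairing of some libraries. In 2DC vs. 2DC_L, where replicates 1 and 2 share a name prefix across the conditions, the correlations were 0.322, 0.0644 and 0.105. In 3DF_50 vs. 2DC_L, where replicate 3 shares a prefix, they were 0.140, 0.0749 and 0.259. In the other comparisons no same-numbered libraries share a prefix, so the rule could not find pairing by prefix there. With the replicate number as a block, the count in 2DF vs. 2DC was 1 (IGFBP6 at -0.98), IGF1 in 3DF vs. 2DF was no longer called, and no other count moved by over 1.5 times. Among the other ligand, protease and receptor-proximal genes, no limit on the fold change gave 8 in place of 5 in 3DF vs. 2DC and 10 in place of 3 in 2DF vs. 2DC, and the prefix block gave 0 in place of 3 in 2DF vs. 2DC and in 3DF vs. 2DF. In 3DF vs. 3DF_50 the count of 2 became 1 with library size alone and with all 5 conditions, 0 with the prefix block and with either limma fit, and 0 to 2 without 1 library. Over all genes, the median log2 fold change with library size alone was 0.19 for 3DF vs. 2DC and 0.37 for 3DF_50 vs. 2DC.

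The reversed values were small. IGF2R in 2DF vs. 2DC was 0.061 with library size alone and ran from -0.10 to 0.040 without 1 library. In 3DF vs. 2DF, IGFBP6 was -0.28 and IGFBP7 -0.054 with the prefix block, and IGFBP7 ran from -0.11 to 0.44 without 1 library. IGF1R in 3DF vs. 3DF_50 was -0.092 with library size alone. In 2DC vs. 2DC_L, the prefix block gave 0.0061 for IGFBP5, 0.096 for IGFBP6 and 0.022 for IGFBP7. Without 1 library, values there ran from -0.35 to 0.066 for IGF1, -0.051 to 0.12 for IGF1R, -0.18 to 0.035 for IGFBP2, -0.054 to 0.27 for IGFBP4, -0.16 to 0.11 for IGFBP5 and -0.25 to 0.040 for IGFBP7. Depth limits the precision for IGF1, which had as few as 23 counts in a library.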
